A study of Homo sapiens with 4 samples.

Results

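The regions described here are those at the genes that write and erase histone acetylation: 31 human genes for histone acetyltransferases, histone deacetylases and sirtuins. Every listed region overlapping the RefSeq span of one of these genes, extended by 10 kb on both sides, was taken, which gave 195 of the 125986 regions of the authors' deposited table. All 31 genes matched the reference and held at least 1 region. The assay was ATAC-seq, which maps open DNA by where Tn5 transposase inserts adapters, in A375, an established human melanoma cell line. Cells in 100-mm plates, in DMEM with serum, were kept for 48 h with octanoate at 1 mM, a fatty acid of medium chain length, or with isopropanol as vehicle, with 2 libraries in each group. Both groups come from this 1 cell line, and no label says whether the paired numbers of the titles mark separate cultures, so the spread between libraries may be technical.

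Acetyltransferases move the acetyl group of acetyl-CoA onto lysines of histone tails, which loosens the hold of histones on DNA and gives bromodomain proteins a mark to bind. Deacetylases of the HDAC family remove it with a zinc ion in the active site, and sirtuins remove it with NAD as a cosubstrate. Octanoate is broken down in mitochondria to acetyl-CoA, so the enzymes that use and release acetyl groups are of interest in cells fed with it, and the comparison asks which of their genes differ in accessibility.

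The listed promoters of 4 of these genes are shown: HDAC4, HDAC6 and SIRT4 because the 95% intervals of their start regions lie above 0, and HDAC7 because its start region had the lowest value among the tested ones. They are the RefSeq windows of GRCh38.p14 that run from 250 bases before to 50 bases after the listed transcription start, and each lies wholly inside an accessible region of the table. HDAC4 is at chr2:239274732-239275031 (minus strand), HDAC6 at chrX:48801817-48802116 (plus strand), SIRT4 at chr12:120291939-120292238 (plus strand) and HDAC7 at chr12:47819854-47820153 (minus strand). Capitals mark CpG dinucleotides and, in SIRT4, the whole cAMP response element TGACGTCA.
HDAC4: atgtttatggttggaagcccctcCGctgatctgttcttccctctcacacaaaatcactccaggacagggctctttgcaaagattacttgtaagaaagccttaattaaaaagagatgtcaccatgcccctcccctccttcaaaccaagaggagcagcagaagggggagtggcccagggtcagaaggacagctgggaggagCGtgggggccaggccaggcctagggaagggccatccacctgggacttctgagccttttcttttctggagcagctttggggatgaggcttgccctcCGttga
HDAC6: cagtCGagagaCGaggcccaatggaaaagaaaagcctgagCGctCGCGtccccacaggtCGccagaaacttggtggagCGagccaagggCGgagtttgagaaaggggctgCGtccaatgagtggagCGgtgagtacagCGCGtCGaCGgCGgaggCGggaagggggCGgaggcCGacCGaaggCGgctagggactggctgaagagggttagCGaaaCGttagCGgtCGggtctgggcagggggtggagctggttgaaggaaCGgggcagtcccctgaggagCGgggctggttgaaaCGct
SIRT4: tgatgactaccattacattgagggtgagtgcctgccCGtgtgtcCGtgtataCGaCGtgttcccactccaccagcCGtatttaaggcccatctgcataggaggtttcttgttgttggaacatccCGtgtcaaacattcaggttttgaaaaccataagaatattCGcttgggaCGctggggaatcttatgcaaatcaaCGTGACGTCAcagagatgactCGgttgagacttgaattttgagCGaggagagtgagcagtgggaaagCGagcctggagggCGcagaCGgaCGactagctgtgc
HDAC7: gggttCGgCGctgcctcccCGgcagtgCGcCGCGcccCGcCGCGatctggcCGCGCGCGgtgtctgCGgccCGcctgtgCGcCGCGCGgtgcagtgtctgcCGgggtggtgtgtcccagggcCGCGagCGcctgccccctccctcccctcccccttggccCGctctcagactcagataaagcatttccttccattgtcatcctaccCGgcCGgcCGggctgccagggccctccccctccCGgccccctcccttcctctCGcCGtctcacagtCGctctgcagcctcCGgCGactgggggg

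The 4 windows differ in CpG content. HDAC4 holds 3 CpGs and is 54.3% G and C, while HDAC7 holds 33 CpGs and is 74.7% G and C, with HDAC6 (27 CpGs) and SIRT4 (16 CpGs) in between. Promoter windows were given for 26 of the 31 genes (not for KAT6A, KAT8, HDAC5, SIRT7 and NCOA2), and their median was 29.5 CpGs, against 22 over 15842 protein-coding promoters. HDAC4 had the fewest CpGs of the 26, followed by HDAC9 with 5 and HDAC8 with 9, and NCOA1 had the most, 55. The listed starts of HDAC4 and HDAC9 lie inside the gene spans. Regions at the outer 5' ends lie at -126.5 kb (HDAC4) and -409.1 kb (HDAC9) from them. Their mean signal was 169.6 at HDAC4, against 83.4 at the listed start, and 52.8 at HDAC9, against 44.8. CpGs at these outer ends were not counted, so the counts describe the listed starts alone. A search of both strands for 8 short motifs found GGGCGG, the GC box, in 15 of the 26 windows (57.7%, against 58.5% of all promoters), among them HDAC6 with 2. The ETS motif CCGGAAG was in 6 windows (23.1%, against 14.2%), the core of the NRF1 motif, GCATGCGC, in SIRT5 and SIRT6 (7.69%, against 4.26%), and the cAMP response element in SIRT4 alone (3.85%, against 2.59%). The CCAAT box was in 7 windows (26.9%, against 36.4%), the E-box CACGTG in KAT5 and SIRT1 (7.69%, against 8.88%), and the AP-1 motif TGANTCA in HDAC9 (3.85%, against 5.75%). TATAAA was in 0 of the 26, against 9.63% of all promoters. A match in these letters is not a measured binding site.

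The table gave a mean normalized read count over the 4 libraries for each region, a log2 fold change of octanoate over vehicle with its standard error, and p-values, but 0 columns for single libraries. Levels in the groups are therefore the means that the deposited mean and fold change imply. The labels report an average of 40000000 to 50000000 paired-end reads per library, and the depth of each library is otherwise unknown, so that no counting intervals are given. An adjusted p was computed by the authors for 11185 regions, whose lowest mean was 63.8 normalized reads and which are called tested regions here. Of the 195 regions 28 were tested (14.4%, against 8.88% of all regions), and they lay at 20 of the 31 genes. The labelled cell type was looked at through regions at marker gene starts. Of 7 melanocytic markers 4 had one (MITF, PMEL, DCT and SOX10) and MLANA, TYR and TYRP1 had none, all 6 markers of undifferentiated melanoma had one, and 10 of 12 markers of other cell types had none, the exceptions being CD3E and MYOD1.

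None of the 28 tested regions passed an adjusted p of 0.05 per the authors' deposited table (0 of 28, DESeq2 with Benjamini-Hochberg adjustment), where 1.02% of all tested regions passed. At an adjusted p under 0.1 there were 2 regions per the authors' deposited table, both at HDAC4, where 2.98% of all tested regions passed. At an unadjusted p under 0.05, the authors' deposited table had 6 of the 28 higher after octanoate (21.4%) and 0 lower, against 14.8% higher and 0.107% lower over all tested regions. Of these 6 regions 4 belonged to HDAC4, and without that gene 2 of 24 remained (8.33%). The whole table was shifted upward, with a median log2 fold change equal to 0.19 over tested and 0.23 over all nuclear regions. The 195 regions had a median of 0.20 per the authors' deposited table, with 138 of 195 above 0 (70.8%, against 72.1% of all nuclear regions), and 25 of the 28 tested ones were above 0 (89.3%, against 85.7% of all nuclear tested regions). Relative to the tested median, 3 regions had an unadjusted p under 0.05: a pair at HDAC4 that was higher and the start region of HDAC7 that was lower, where 3.16% of all tested regions were higher and 1.01% lower. With the all-region median subtracted instead, the counts were also 2 higher and 1 lower, where 2.15% of all tested regions were higher and 1.83% lower.

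**Figure D1:**
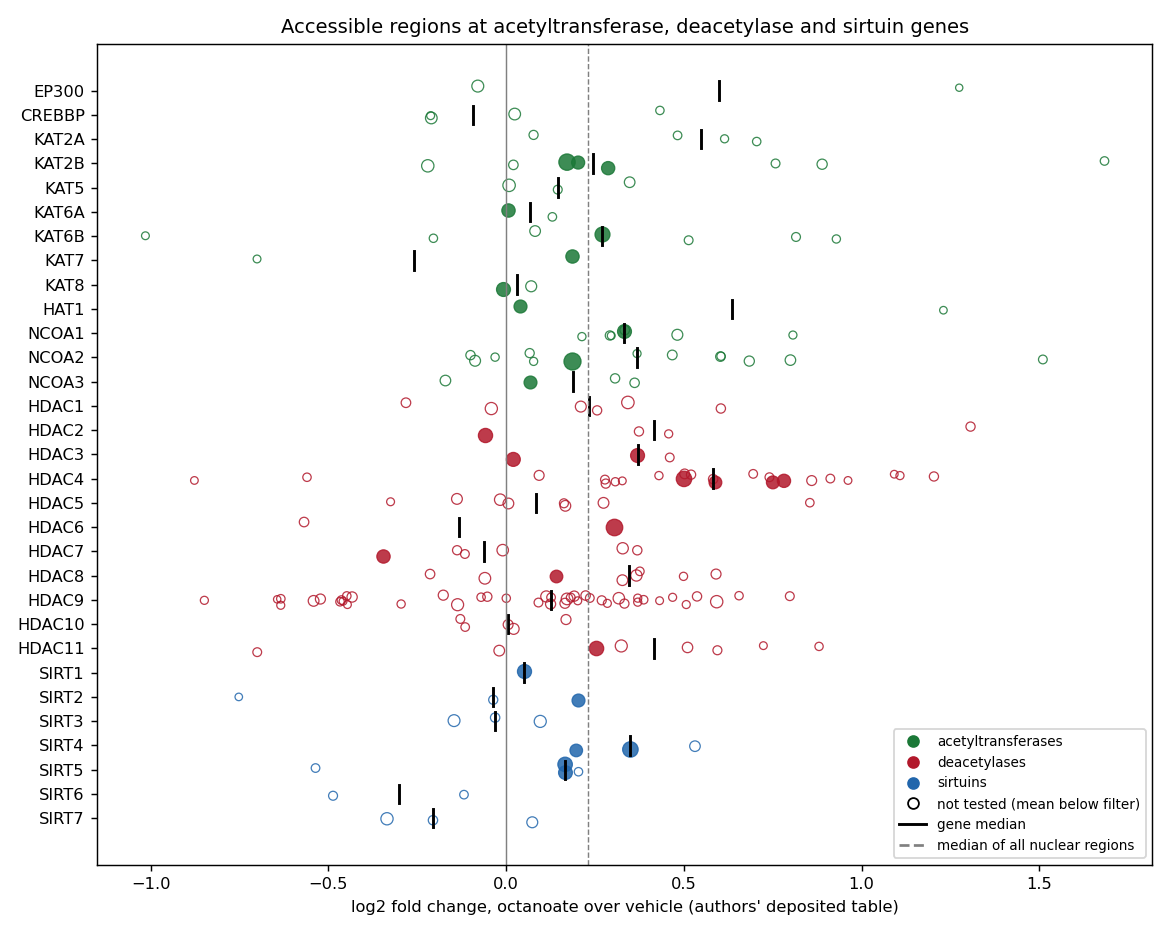
Each circle is 1 of the 195 accessible regions, placed on the x axis at its log2 fold change (octanoate over vehicle, authors' deposited table) and on the y axis by gene, with larger circles for higher mean signal, filled circles for the 28 tested regions and vertical jitter for legibility only. Black bars are gene medians and the dashed line is the median of all nuclear regions, 0.23; HDAC4 has its 4 tested regions between 0.50 and 0.78, whereas the tested regions of the other genes lie between -0.35 and 0.37.

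HDAC4, a class IIa deacetylase that shuttles between cytoplasm and nucleus and represses MEF2 targets, had the 4 highest log2 fold changes among the tested regions of the 31 genes. It held 23 regions, 21 of them above 0 (91.3%, against 72.1% of all nuclear regions), with a median log2 fold change equal to 0.58 per the authors' deposited table. The region over its listed start, chromosome 2 from 239274272 to 239275818, had an implied 61.4 normalized reads in vehicle and 105 in octanoate. Its log2 fold change, per the authors' deposited table, was 0.78 (standard error 0.23, adjusted p 0.0552), a 1.72-fold difference with a 95% interval of 0.33 to 1.23 on the log2 scale. Gene medians were higher at HAT1 (0.63) and EP300 (0.60) alone, each from 2 regions of which 1 was very weak. The start region of HDAC4 had the highest of the tested values, and it missed the adjusted threshold by a small margin.

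The other tested regions of HDAC4 were also above 0. At the outer 5' end of the gene span (239400374 to 239402241), at -127 kb from the listed start, implied levels were 140.5 in vehicle and 199 in octanoate, with a log2 fold change equal to 0.50 (standard error 0.16, adjusted p 0.0885) per the authors' deposited table. A region 27.0 kb downstream of the listed start, inside the gene (239247356 to 239248241), had implied levels of 55.2 and 92.8 and a log2 fold change equal to 0.75 (standard error 0.25, adjusted p 0.102) per the authors' deposited table. Another 79.3 kb downstream (239194633 to 239196387) had 55.1 and 82.8, with 0.59 (standard error 0.26, adjusted p 0.238) per the authors' deposited table. All 4 were thus higher in octanoate with 95% intervals above 0, and none passed the adjusted threshold. Of its 19 weaker regions 17 were above 0, with a median of 0.52 per the authors' deposited table. After the tested median was subtracted, the start region kept a log2 fold change equal to 0.59 and had an adjusted p of 0.849. The region 27.0 kb downstream kept 0.56. The outer 5' end region kept 0.31 and the one 79.3 kb downstream 0.40, both with an unadjusted p above 0.05.

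Regions around HDAC4 also had medians above that of the whole table. HDAC4 lies 2.78 Mb from the last listed region of the long arm of chromosome 2. The 83 regions within 1 Mb on either side, outside the gene's own window, had a median log2 fold change equal to 0.55 per the authors' deposited table, against 0.58 for the gene itself. Of these 83 regions 86.7% were above 0, against 91.3% at the gene. Over tested regions alone the medians were 0.30 for the 7 around it and 0.67 for the 4 of HDAC4, and 1 of the 7 passed an adjusted p of 0.05. Within 2 Mb the median was 0.43 over 202 regions and 0.35 over the 18 tested ones per the authors' deposited table, and 2 of the 18 passed. Over the genome, the median was 0.33 for regions lying within 5 Mb of a chromosome end and 0.30 for the 1040 tested ones among them, of which 4.23% passed, per the authors' deposited table. The other 5 genes within 5 Mb of an end (CREBBP, HDAC10, SIRT3, SIRT6 and SIRT7) had gene medians between -0.30 and 0.01, below that of all regions. These medians come from 2 to 5 regions per gene, with 0 tested regions, on other chromosomes. The part of chromosome-end position in the HDAC4 values was not tested.

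**Figure D2:**
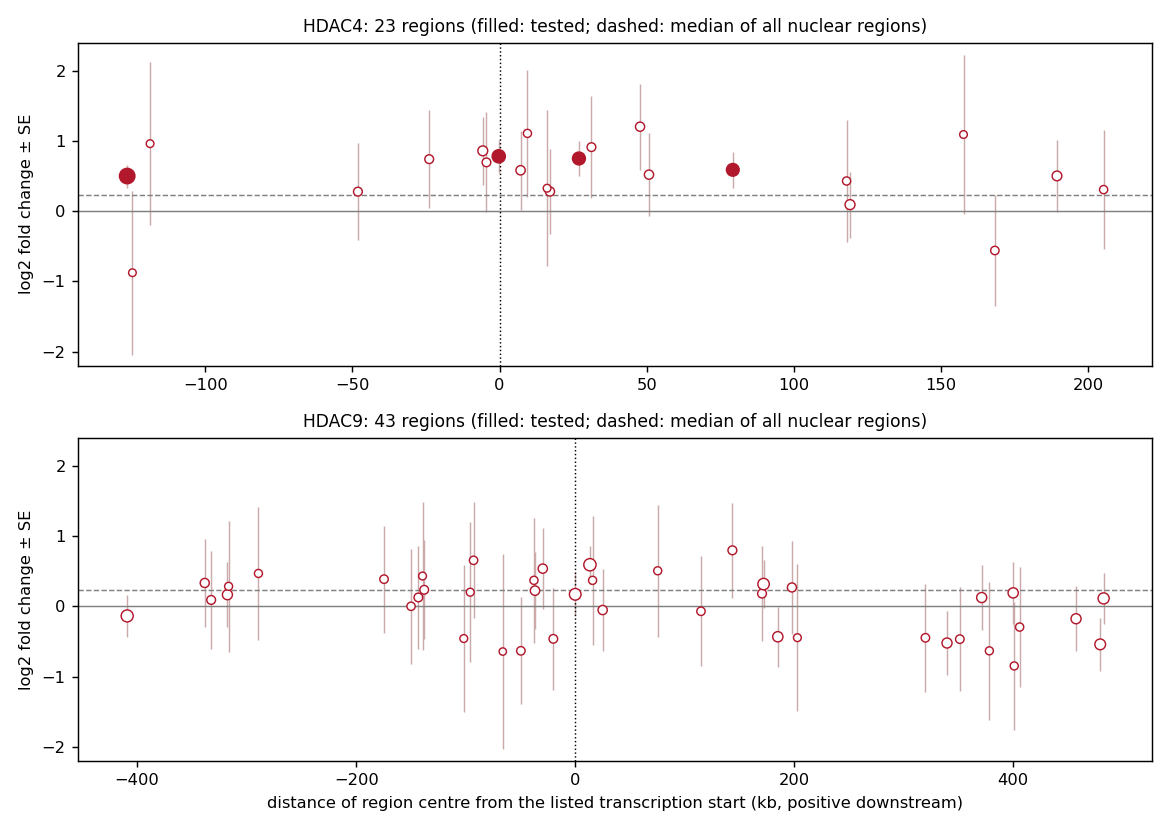
Log2 fold change (octanoate over vehicle, authors' deposited table) of each region of HDAC4 (top, 23 regions) and HDAC9 (bottom, 43 regions) against the distance of its centre from the listed transcription start in kb, with bars of 1 standard error, filled circles for tested regions and larger circles for higher mean signal. HDAC4 regions lie above 0 in 21 of 23 cases on both sides of the start, while HDAC9 regions are spread around a median of 0.13.

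HDAC9, another class IIa deacetylase and the longest of the 31 genes at 916 kb, held the most regions, 43, and none reached the mean signal needed for testing. Its median log2 fold change was 0.13 per the authors' deposited table, with 26 regions above 0 (60.5%, against 72.1% of all nuclear regions) and 17 below. Within the gene, the 19 regions upstream of the listed start had a median of 0.22 and the 22 downstream of it one of -0.06, per the authors' deposited table. The region over the listed start had implied levels of 42.1 in vehicle and 47.4 in octanoate, a log2 fold change equal to 0.17 (standard error 0.31) per the authors' deposited table. Its strongest region, 13.4 kb downstream of that start (chromosome 7, 18508572 to 18509810), had a mean of 58.9 and a log2 fold change equal to 0.59 (standard error 0.27) per the authors' deposited table. Both class IIa genes are long and rich in weak regions, and together they held 66 of the 195 regions (33.8%). The median of all deacetylase regions, 0.24 as deposited, was 0.17 without HDAC4 and 0.32 without HDAC9.

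HDAC7 and HDAC5 complete class IIa. HDAC7, a repressor with roles in endothelial cells and thymocytes, had the lowest tested value of the 31 genes at its start (chromosome 12, 47818611 to 47821060), where implied levels were 96.0 in vehicle and 75.6 in octanoate. Its log2 fold change was -0.35 (standard error 0.23, adjusted p 0.474) per the authors' deposited table, and the 95% interval of -0.79 to 0.10 includes 0. Of its 6 regions 4 were below 0. HDAC5 held 8 regions with a median of 0.08 per the authors' deposited table, none of them tested, and its gene-end region had a log2 fold change equal to 0.17 (standard error 0.40) there.

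The class I enzymes HDAC1, HDAC2 and HDAC3 are the catalytic subunits of the main nuclear corepressor complexes, and HDAC8 acts on cohesin. The authors' deposited table gave log2 fold changes of -0.06 (standard error 0.19) at the HDAC2 start and 0.02 (0.20) at the HDAC3 start. At HDAC8 the start region was not tested and had -0.06 (0.32), while the 1 tested region, 111 kb downstream inside the gene, had 0.14 (standard error 0.26, adjusted p 0.835), and 6 of 8 regions were above 0 with a median of 0.35, per the authors' deposited table. HDAC1 had implied levels of 55.4 in vehicle and 70.2 in octanoate at its start, with 0.34 (standard error 0.26) per the authors' deposited table, and its mean of 62.8 fell just under the filter. The paralogues HDAC1 and HDAC2, which often share complexes, thus had start values of 0.34 and -0.06 with intervals that overlap. A tested region in the HDAC3 window, at 0.37 (standard error 0.20, adjusted p 0.378) per the authors' deposited table, lies within 1 kb of the start of DIAPH1, and the HDAC3 start region within 1 kb of that of RELL2.

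HDAC6, the tubulin deacetylase of class IIb, had the densest start region of the 31 genes, with 129.9 mean normalized reads per kb (chromosome X, 48801137 to 48802905). Implied levels were 206 in vehicle and 254 in octanoate, and the log2 fold change, per the authors' deposited table, was 0.30 (standard error 0.14, unadjusted p 0.0340, adjusted p 0.288). HDAC10, its partner in the class and a polyamine deacetylase, had a weak start region with a mean of 18.8 and a log2 fold change equal to 0.01 (standard error 0.49) per the authors' deposited table. HDAC11, the only class IV enzyme and a remover of long fatty acyl groups, had 8 regions, 6 of them above 0. Its start region had implied levels of 114 and 136 and a log2 fold change equal to 0.25 (standard error 0.19, adjusted p 0.546) per the authors' deposited table.

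Among acetyltransferases, 60 regions at 13 genes had a median log2 fold change equal to 0.24 per the authors' deposited table, and 10 of 11 tested regions were above 0 (90.9%, against 85.7% of all nuclear tested regions). None of the 11 had an unadjusted p under 0.05 per the authors' deposited table, where 14.8% of all tested regions did in the upward direction. The coactivators EP300 and CREBBP, closely related enzymes that acetylate enhancers, had 2 and 4 regions, none tested. Their start regions had log2 fold changes of -0.08 (standard error 0.30) and 0.02 (0.31) per the authors' deposited table. With 32.7 and 32.1 mean normalized reads per kb they were the least dense when the strongest start or gene-end region of each gene was taken. The margin was small, with KAT2A at 33.1 and HDAC5 at 33.5.

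KAT2B (PCAF), which acetylates histone H3 as part of the SAGA and ATAC coactivator complexes, was the best covered of the acetyltransferases, with 3 tested regions among 8. The start region had implied levels of 207 in vehicle and 233 in octanoate, a log2 fold change equal to 0.17 (standard error 0.14) per the authors' deposited table. The tested regions 14.3 and 33.2 kb downstream had 0.20 (standard error 0.24) and 0.29 (0.23) per the authors' deposited table, so all 3 were close to the shift of the whole table. Its paralogue KAT2A held 4 weak regions, with 0.08 (standard error 0.61) at the start per the authors' deposited table. HAT1, which acetylates newly made histone H4, had implied levels of 75.1 and 77.1 at its start and a log2 fold change equal to 0.04 (standard error 0.25) per the authors' deposited table.

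The MYST enzymes differ in their complexes and in the histone H3 and H4 lysines they acetylate. KAT5 (TIP60), with a role in DNA repair, had a start value of 0.01 (standard error 0.27) per the authors' deposited table and was not tested. KAT7 (HBO1), which acts at replication origins, had 0.18 (standard error 0.23, adjusted p 0.737), and KAT6B had 0.27 (0.18, adjusted p 0.476), per the authors' deposited table. At gene ends, where no start was listed, KAT6A had 0.01 (standard error 0.22) and KAT8 (MOF), the enzyme for lysine 16 of histone H4, had -0.01 (0.21) per the authors' deposited table. The 95% intervals of the paralogues KAT6A and KAT6B overlapped.

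The p160 coactivators bind nuclear receptors and bring in other acetyltransferases. All 7 regions of NCOA1 were above 0, where 72.1% of all nuclear regions were, with a median of 0.33 per the authors' deposited table. Its start region had implied levels of 92.9 in vehicle and 117 in octanoate, and a log2 fold change equal to 0.33 (standard error 0.20, adjusted p 0.440) per the authors' deposited table. NCOA3, often amplified in breast cancer, had 0.07 (standard error 0.25, adjusted p 0.928) at its start per the authors' deposited table. NCOA2 had no region at either gene end, but a region inside the gene span had the highest mean of all 195, 265 normalized reads, with implied levels of 248 and 282 and a log2 fold change equal to 0.19 (standard error 0.15, adjusted p 0.576) per the authors' deposited table. With no listed start for NCOA2, whether that region lies at a start could not be told.

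Sirtuin genes are short and held 19 regions at 7 genes, with the lowest median of the 3 families, 0.05 per the authors' deposited table. All 6 tested regions were above 0, with a median of 0.18, where 85.7% of all nuclear tested regions were above 0. Of the 19 regions in all 10 were above 0 (52.6%, against 72.1% of all nuclear regions). SIRT4, a mitochondrial sirtuin that restrains fatty acid oxidation and glutamate dehydrogenase, had the highest start value of the family (chromosome 12, 120290755 to 120293428). Implied levels were 152 in vehicle and 193 in octanoate, and the log2 fold change was 0.35 (standard error 0.17, unadjusted p 0.0347, adjusted p 0.290) per the authors' deposited table. All 3 of its regions were above 0. The other mitochondrial sirtuins had start values of 0.17 (standard error 0.27) for SIRT5, which removes succinyl and malonyl groups, and -0.15 (0.31) for SIRT3, the main mitochondrial deacetylase, per the authors' deposited table. The SIRT3 region lies within 1 kb of the PSMD13 start. A second tested region of SIRT5 lies at the start of NOL7 and had 0.17 (standard error 0.21) per the authors' deposited table.

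The nuclear sirtuins SIRT1, SIRT6 and SIRT7 had 6 regions, 4 of them below 0. SIRT1, which deacetylates histones, p53 and PGC-1alpha, had a single region, over its start, with implied levels of 109 in vehicle and 113 in octanoate and a log2 fold change equal to 0.05 (standard error 0.20) per the authors' deposited table. SIRT6, an eraser of lysine 9 acetylation on histone H3, had a start region with a mean of 10.9 and a value of -0.49 (standard error 0.64) per the authors' deposited table, and lies within 1 kb of the ANKRD24 start. SIRT7, found in the nucleolus, had a gene-end region at 0.07 (standard error 0.37), which lies within 1 kb of the PCYT2 start, and another at -0.21 (0.58) per the authors' deposited table. All 5 regions of SIRT6 and SIRT7 were too weak to be tested. SIRT2, the cytosolic tubulin deacetylase, had 0.20 (standard error 0.24, adjusted p 0.730) at its start per the authors' deposited table, in a region within 1 kb of the NFKBIB start.

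**Figure D3:**
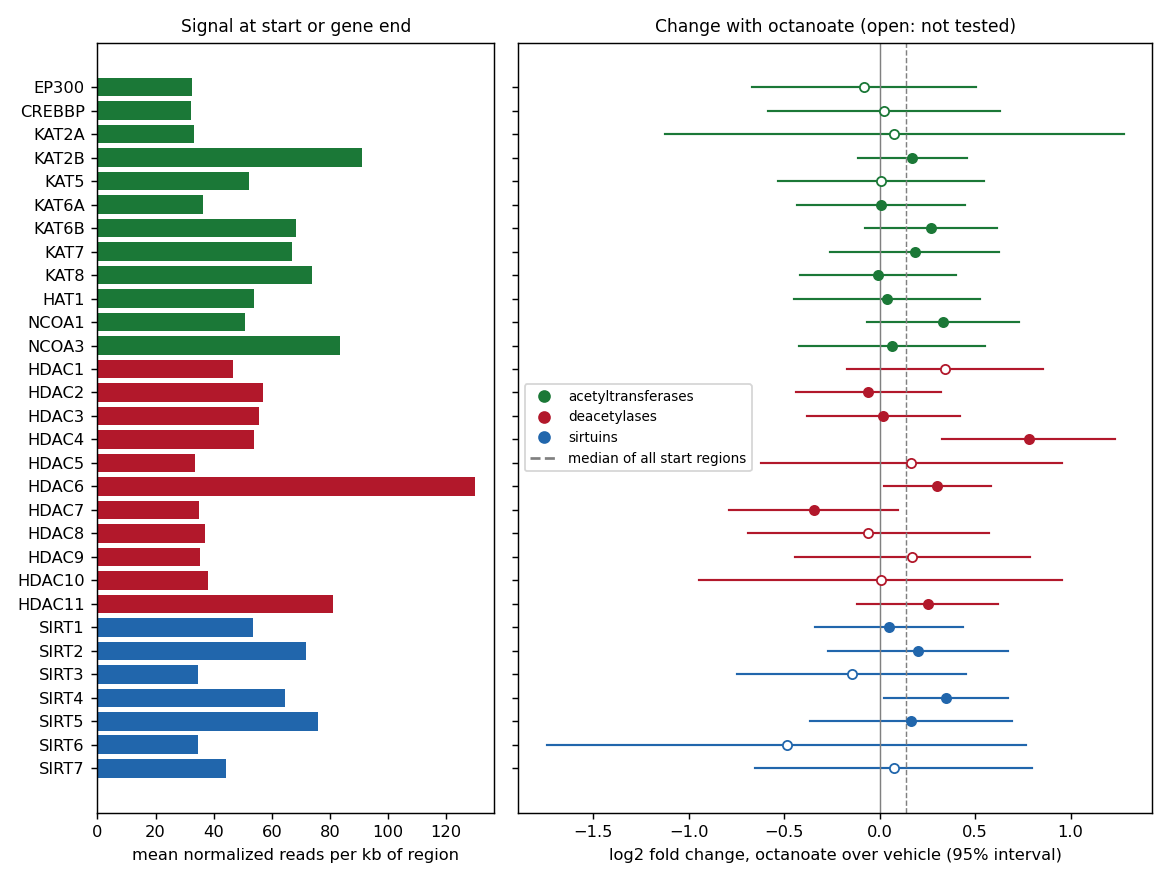
NCOA2, with no listed start and no gene-end region, is not shown. Left, mean normalized reads per kb of the strongest region at each gene's start (gene end for KAT6A, KAT8, HDAC5 and SIRT7, the last within 1 kb of the PCYT2 start). Right, its log2 fold change (octanoate over vehicle, authors' deposited table) with the 95% interval from the deposited standard error, filled where tested; the intervals of HDAC4, HDAC6 and SIRT4 lie above 0 and the other 27 include 0, and the dashed line is the median of all start regions, 0.14.

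Across the strongest start or gene-end regions of 30 genes, signal density ran from 32.1 mean normalized reads per kb at CREBBP to 129.9 at HDAC6, a 4.04-fold range. After HDAC6 came KAT2B (90.8), NCOA3 (83.3) and HDAC11 (80.9), and the spread between libraries of these densities is not known. In the authors' deposited table, the 27 start regions of the 26 genes with a listed start had a median of 0.07, against 0.14 over all 10654 start regions of protein-coding genes. Over tested start regions alone the order was the other way, 0.18 for the 16 of these genes against 0.16 for all 5326. Of the 28 tested regions, 18 lay at a listed start of any protein-coding gene, and 3 of these had an unadjusted p under 0.05 upward (16.7%), against 9.01% of all tested start regions. The other 10 also held 3 (30.0%), all at HDAC4, against 20.1% of tested regions away from listed starts. These 10 include the gene-end regions of KAT6A and KAT8, the strongest NCOA2 region and the region at the outer 5' end of HDAC4. The last is 1 of the 3, and some of these regions may lie at starts that are not listed. For 17 of the 18 tested start or gene-end regions the upper end of the 95% interval was under 1, that is, under a doubling, and the exception was HDAC4.

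Signal summed over each gene's regions, from the same deposited means and fold changes, placed HDAC4 first. HDAC4 had summed implied levels of 467 in vehicle and 701 in octanoate, a log2 ratio of 0.59, where all nuclear regions together had 0.21. The ratio was 0.50 for the regions within 1 Mb around HDAC4 and 0.45 within 2 Mb. It was 0.31 for all regions within 5 Mb of a chromosome end. The next genes were KAT2A at 0.41, from 28.8 and 38.2 summed reads only, NCOA1 at 0.36 (159 and 205) and SIRT4 at 0.33 (236 and 296). At the lower end were SIRT6 at -0.33, from 21.2 and 16.9 summed reads, and SIRT7 at -0.19 (111 and 96.9). Of the 31 genes 25 had a ratio above 0, but 8 exceeded the ratio of all nuclear regions, and these ratios have no error since single libraries are not given.

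**Figure D4:**
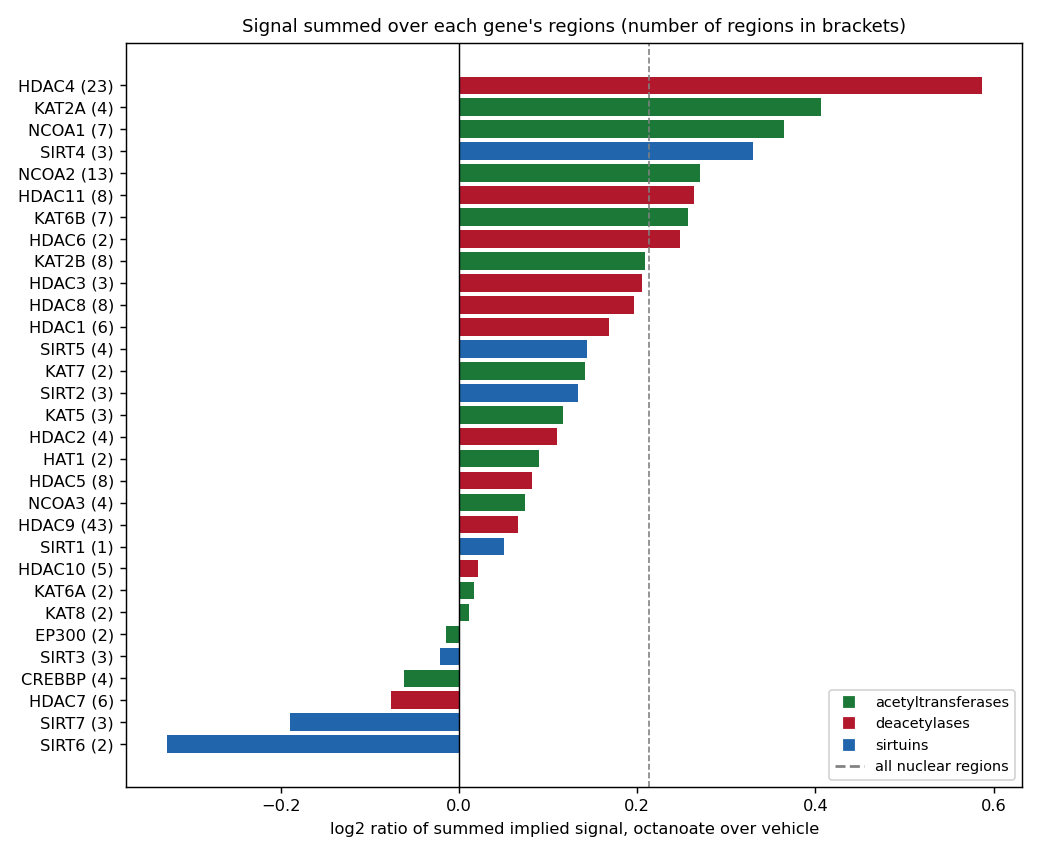
Log2 ratio (octanoate over vehicle) of the implied normalized reads summed over all regions of each gene, with the number of regions in brackets and the family by colour. HDAC4 at 0.59 stands highest, SIRT6 at -0.33 lowest, and the dashed line marks the ratio over all nuclear regions, 0.21.

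The partners of these enzymes were described from lists of 92 other genes. On the list of 32 acetyltransferase complex subunits, 1 of 31 tested regions passed an adjusted p of 0.05 per the authors' deposited table, where 1.02% of all tested regions did. It covers the start of ING1, a reader of methylated histone H3 that is best known from the SIN3 deacetylase complex in spite of its place on this list (chromosome 13, 110711865 to 110716556), with a log2 fold change equal to 0.36 (standard error 0.10, adjusted p 0.0332) per the authors' deposited table. Its mean of 698 normalized reads was the highest among the regions of these 5 lists. The median over all tested regions was 0.19, and no centred value is given for the ING1 region. In the remaining lists none passed: 0 of 26 tested regions for 24 deacetylase complex subunits, 0 of 16 for 16 acetyl-lysine readers, 0 of 10 for 11 genes of acetyl-CoA supply such as ACLY and ACSS2, and 0 of 6 for 9 genes of NAD supply such as NAMPT. At an unadjusted p under 0.05, the counts higher per the authors' deposited table were 8 (25.8%), 2 (7.69%), 0, 0 and 1 (16.7%) in the order given, against 14.8% of all tested regions, and 0 were lower. Their medians over all regions were 0.22, 0.21, 0.11, 0.12 and 0.31 per the authors' deposited table.

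Among the 167 regions of the 31 genes that were not tested, 6 had an unadjusted p under 0.05 (3.59%), all higher after octanoate, per the authors' deposited table. Over all 114801 regions not tested, 2.48% were higher and 0.186% lower at that threshold, and a share this small is not a result about these genes. The 6 lay inside KAT2B (2 regions), NCOA2, HDAC2, HDAC4 and HDAC9, with means between 8.05 and 58.9 normalized reads per the authors' deposited table. Apart from that of HDAC9, these regions were named after their values were seen.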

How the data were processed

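ATAC-seq was done on 4 A375 libraries, 2 with octanoate and 2 with vehicle, grouped by their titles. The authors deposited 1 table of DESeq2 results. Per the submitters' processing notes, the tools were Trim Galore, cutadapt, FastQC, Bowtie2, Picard, MACS2, featureCounts, DESeq2 and bedtools 2.29.1, with hg38 as the build; their settings, the merging of peaks and any shift for the Tn5 cut are not given in the sources used here. Per the file headers, the signal is the mean normalized read count, scaled by the authors. The deposited log2 fold change and its standard error, the deposited score (Wald statistic) and the deposited p-values were used as they stand. The deposited adjusted p equalled Benjamini-Hochberg adjustment over 11185 regions to within 1.69e-14. The other 114801, listed as 1, were treated as not tested.

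Regions (1-based) were matched to RefSeq GRCh38.p14 gene spans and, for starts, within 1 kb of the start in the promoter table. Group levels were derived from the mean and fold change, and 95% intervals from the standard error by the normal distribution. Python 3.11.15, pandas 2.3.3 and scipy 1.17.1 were used, and the adjustment and overlap steps were checked on simulated data. Named regions were, by rule, the strongest start region of each gene, tested regions with the 5 highest and 5 lowest fold changes, regions past the threshold, and the strongest region of genes with at least 10; further tested regions of HDAC8, KAT2B and SIRT5, the weaker gene-end region of SIRT7 and 5 untested regions were named after their values were seen. Members and lists were chosen with earlier results of these data known. Alternatives covered thresholds, adjustment, centring and the gene window.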

Additional observations from a re-analysis of the deposited data

How the results depend on the processing

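No region of the 31 genes passed the threshold under 8 of 9 alternatives, and the other, an adjusted p under 0.1, gave 2. The 6 regions at an unadjusted p under 0.05 became 3 on either centring (2 higher, 1 lower; of all tested regions 3.16% and 1.01% on the tested median), 12 when untested regions were counted, which adds regions by construction, and 2 without HDAC4, a setting chosen after the data were seen. With the all-region median subtracted, medians were -0.028 for the 195 regions, -0.18 for sirtuins and -0.17 for start or gene-end regions, because the subtracted value exceeded them; the sirtuin median over genes was -0.031, and the cause was not tested. Without replicate values, medians were judged by the standard error of single regions, a wide measure that says little of their stability; the deacetylase median ran from 0.17 without HDAC4 to 0.32 without HDAC9. Centred on the tested median, which shifts every region alike, 16 named regions above 0 as deposited were below 0, 7 of them not tested; the 9 tested ones were HAT1 (-0.15), HDAC3 (-0.17), KAT2B (-0.015), KAT6A (-0.18), KAT7 (-0.0027), NCOA2 (-0.0012), NCOA3 (-0.12), SIRT1 (-0.14) and SIRT5 (-0.021). No paired analysis was possible because single libraries are absent from the columns used here, which also kept any replicate from being left out. Signal limits the tests: 167 of the 195 regions had means below the lowest tested one, 63.8, and the depth behind them is unknown.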
